A study of Mus musculus with 5 samples.

Results

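The GADD45 genes and the enzymes that write or oxidize DNA methylation were examined in the mouse hippocampus after kainic acid seizures. The 9 genes, Gadd45a, Gadd45b, Gadd45g, Tet1, Tet2, Tet3, Dnmt1, Dnmt3a and Dnmt3b, were taken by gene symbol from 55385 listed genes. All 9 passed the filter on low counts, as did 19768 genes in all. Hippocampal total RNA came from male C57/bl6 mice aged 3 months. The control group was untreated (0 h), with 1 library. The other groups received kainic acid, a glutamate receptor agonist that induces seizures, at 20 mg/kg by intraperitoneal injection, and tissue was taken 1 h, 4 h or 8 h after seizure onset. There was 1 library at 1 h, 2 at 4 h and 1 at 8 h. Whether each library represents 1 mouse is not given in the labels. The control was untreated, so injection and kainic acid cannot be told apart. Counts assigned to genes numbered 19100374 in control, 17744508 at 1 h, 18250114 and 19109204 in 4 h replicates 1 and 2, and 16612225 at 8 h.

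GADD45 proteins are small acidic stress sensors that bind MAP3K4, PCNA and CDK1 and have been linked to active DNA demethylation. TET enzymes oxidize 5-methylcytosine, and the oxidized bases can be removed by the glycosylase TDG and base excision repair. DNMT1 copies methylation onto newly made DNA, whereas DNMT3A and DNMT3B add it to unmethylated sites. In neurons Gadd45b is known as an activity-induced gene.

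The 4 h libraries differed from each other, which bears on every value at that time. As the only pair, they also set the spread behind each SE and adjusted p at 1 h and 8 h. Only the tests with an assumed coefficient of variation did not take their spread from this pair. The choroid plexus markers Ttr, Folr1 and Kcnj13 summed to 3818 CPM (counts scaled to a common library size) in control, 1605 at 1 h, 17.1 in 4 h replicate 1, 4041 in 4 h replicate 2 and 2930 at 8 h. Ttr was the most abundant of the 3, and none was at 0 in any library. The thalamus markers Tcf7l2 and Prkcd, led by Prkcd, summed to 29.7 CPM in control, 31.7 at 1 h, 212 and 83.1 in 4 h replicates 1 and 2, and 25.7 at 8 h. Reads that the counting assigned to no feature made up 24.7% of reads in control, 29.0% at 1 h, 33.1% and 25.3% in the 4 h replicates, and 30.9% at 8 h. Thus 4 h replicate 1 held almost no choroid plexus RNA and the most thalamic marker RNA and the largest share of reads with no feature. Replicate 2 also stood above control for the thalamus markers. The part of these differences in the results was not tested. In bulk tissue, fewer cells of a type and less RNA per cell cannot be told apart.

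**Figure D1:**
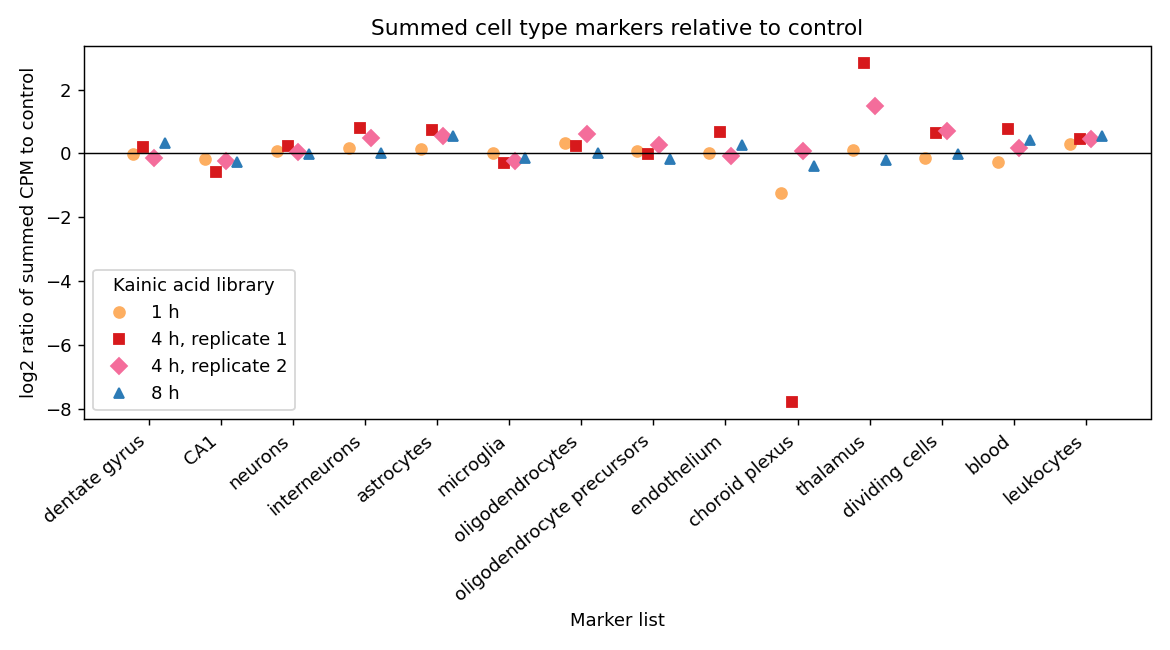
Summed CPM of each marker list in each kainic acid library, as log2 ratio to the control library. Choroid plexus markers separated 4 h replicate 1 from the other libraries, with summed CPM of 17.1 against 3818 in control. Thalamus markers were higher in both 4 h libraries (212 and 83.1 CPM in replicates 1 and 2) than in control (29.7).

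Hippocampal markers were present in every library. Dentate gyrus markers summed to 162, 161, 187, 145 and 204 CPM in control, 1 h, 4 h replicate 1, 4 h replicate 2 and 8 h, but the 3 genes went different ways. In the same order, Prox1 stood at 60.0, 67.2, 172, 120 and 77.1 CPM, Dsp at 72.2, 66.1, 4.34, 13.6 and 68.5 CPM, and C1ql2 at 29.3, 27.9, 11.05, 11.7 and 58.1 CPM. Both 4 h libraries were thus high for Prox1 and low for Dsp and C1ql2. CA1 markers, led by Fibcd1, summed to 232, 206, 156, 198 and 192 CPM. Fibcd1 stood at 132, 112, 69.1, 92.3 and 98.1 CPM, below control in every kainic acid library. Wfs1 stood at 84.7, 79.4, 76.7, 88.5 and 78.8 CPM and Spink8 at 14.9, 14.9, 10.5, 16.8 and 15.1 CPM. These 2 genes lay above control in 4 h replicate 2. Neuron markers, led by Map2, summed to 4599, 4850, 5415, 4718 and 4509 CPM, but here too the genes differed. Map2 stood at 1729, 1815, 2465, 2094 and 2033 CPM, whereas Rbfox3 stood at 119, 115, 82.0, 82.4 and 93.0 CPM, and Syt1 at 1314, 1326, 1216, 1121 and 1092 CPM. Astrocyte markers summed to 922 CPM in control and to between 1014 and 1520 CPM after kainic acid. Most of this difference at 4 h and 8 h was in Gfap, at 221, 272, 596, 510 and 587 CPM, whereas Slc1a3, the most abundant on average, stood at 509, 537, 625, 590 and 579 CPM. Interneuron markers, led by Gad1, summed to 440 CPM in control and to between 449 and 769 CPM after kainic acid. Gad1 and Gad2 lay above control in every kainic acid library, whereas Sst stood at 80.8, 72.8, 103, 80.9 and 63.9 CPM. Oligodendrocyte markers, led by Mbp, summed to 2978, 3724, 3514, 4529 and 2994 CPM and were highest in 4 h replicate 2. Microglia markers, led by Csf1r, summed to between 133 and 167 CPM, but the genes differed. P2ry12 stood at 31.9, 29.7, 13.9, 17.8 and 20.8 CPM, and Csf1r at 85.0, 86.5, 82.3, 82.1 and 74.4 CPM. Cx3cr1 stood at 32.1, 34.1, 24.9, 24.2 and 36.7 CPM, and Tmem119 at 16.5, 16.2, 12.1, 16.0 and 17.5 CPM. Endothelial markers, led by Flt1, summed to 67.3, 67.5, 107, 63.6 and 80.7 CPM, but the genes differed. Flt1 was highest in 4 h replicate 1 (70.2 CPM), whereas Cldn5 and Pecam1 were highest at 8 h (17.6 and 26.2 CPM).

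Gadd45b and Gadd45g had the largest ratios to control among the 9 genes at 1 h. Their promoters are shown because both genes stood high at 1 h and 4 h, with those of Gadd45a and Tet3 for comparison. Sequences are from RefSeq on GRCm38.p6, 5′ to 3′ on the strand of the gene, and stop before the first base of any annotated exon. Capitals mark the matches to the E-box and CCAAT box on either strand and to the TATA box on the strand of the gene. Gadd45a lies at chr6:67037458-67037657 on the minus strand, Gadd45b at chr10:80929841-80930072 and Gadd45g at chr13:51846425-51846674 on the plus strand, and Tet3 at chr6:83441679-83441928 on the minus strand, these being the printed intervals.
Gadd45a: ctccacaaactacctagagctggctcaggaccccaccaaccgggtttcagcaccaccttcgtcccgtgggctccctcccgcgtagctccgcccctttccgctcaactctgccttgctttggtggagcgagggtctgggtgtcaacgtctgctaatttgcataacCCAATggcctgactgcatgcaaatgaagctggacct
Gadd45b: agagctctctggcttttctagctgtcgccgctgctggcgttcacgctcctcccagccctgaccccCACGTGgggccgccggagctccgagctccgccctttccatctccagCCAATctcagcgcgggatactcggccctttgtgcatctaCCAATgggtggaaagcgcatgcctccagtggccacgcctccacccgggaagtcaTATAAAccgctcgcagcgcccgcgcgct
Gadd45g: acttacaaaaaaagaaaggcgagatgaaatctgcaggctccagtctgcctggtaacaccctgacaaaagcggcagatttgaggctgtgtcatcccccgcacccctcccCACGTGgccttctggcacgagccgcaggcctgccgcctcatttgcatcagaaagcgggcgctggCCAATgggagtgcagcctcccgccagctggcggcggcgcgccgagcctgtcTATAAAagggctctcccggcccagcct
Tet3: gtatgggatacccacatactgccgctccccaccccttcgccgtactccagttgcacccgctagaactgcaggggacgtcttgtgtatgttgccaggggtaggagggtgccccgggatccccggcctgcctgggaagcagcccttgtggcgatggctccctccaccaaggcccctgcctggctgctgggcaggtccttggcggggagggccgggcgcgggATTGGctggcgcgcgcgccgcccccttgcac

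The Gadd45b and Gadd45g windows each held 1 E-box and 1 TATA box, which the Gadd45a and Tet3 windows did not hold. Of the other genes, Dnmt3a also had an E-box, in 1 of its 3 windows. Of 32851 RefSeq windows of the same 250 bases upstream, 6.02% held the E-box letters CACGTG, 7.59% the TATA box letters TATAAA and 33.8% the CCAAT box. Also searched on both strands were TGACGTCA, TGACG (contained in it), TGANTCA, GCGTGGGCG and the SRF CArG box, found in 1.55%, 17.8%, 6.75%, 0.536% and 1.47% of windows and in no window of the 9 genes. The motifs were chosen after the data were seen, and a match describes the letters only. The Tet3 window starts inside the longer annotated gene. Over the 250 bases, Gadd45b held 22 CpG, Gadd45g 16, Tet3 17 and Gadd45a 11, against a median of 6 over all windows. Among the remaining members, Tet1 held 15, Tet2 51 and Dnmt3b 21. The 3 windows of Dnmt1 held 2, 7 and 26, and those of Dnmt3a 38, 40 and 15.

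Gadd45b (ENSMUSG00000015312.9, chr10:80930073-80932204) was counted 144 times in control, 1855 at 1 h, 2560 and 1365 in 4 h replicates 1 and 2, and 366 at 8 h. After trimmed mean of M-values (TMM) scaling this was 7.24 CPM (95% Poisson interval 6.10 to 8.52) in control and 106 (101 to 110) in the 1 h library. The 4 h libraries had 152 (146 to 158) and 72.2 (68.4 to 76.1) CPM, and the 8 h library 20.9 (18.8 to 23.1). All 4 kainic acid libraries lay above control, and the 1 h value lay between the 4 h replicates. Ratios to control were 14.6 at 1 h (95% exact binomial interval 12.3 to 17.4), 21.0 (17.8 to 25.0) and 9.98 (8.40 to 11.9) in the 4 h replicates, and 2.89 (2.37 to 3.52) in the 8 h library. All intervals cover counting error only. The quasi-likelihood test of edgeR, adjusted over all genes by Benjamini-Hochberg, gave log2 fold changes of 3.85 (SE 0.57, adjusted p = 0.751) at 1 h, 3.93 (SE 0.54, adjusted p = 0.242) at 4 h and 1.51 (SE 0.54, adjusted p = 1.00) at 8 h. DESeq2 gave adjusted p = 2.05e-11 at 1 h, 6.69e-16 at 4 h, and 0.513 for the 8 h library. Over the alternatives the adjusted p ran from 3.97e-38 to 1 for the 1 h comparison, 2.88e-43 to 0.327 for the 4 h comparison, and 1.26e-05 to 1 for the 8 h comparison.

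Gadd45g (ENSMUSG00000021453.2, chr13:51846678-51848468) was counted 136 times in control, 2644 at 1 h, 1446 and 519 in the 4 h replicates, and 243 at 8 h. Its levels were 6.83 CPM in control (5.73 to 8.08), 150.4 (145 to 156) in the 1 h library, 85.9 (81.5 to 90.4) and 27.4 (25.1 to 29.9) in the 4 h replicates, and 13.9 (12.2 to 15.7) in the 8 h library. Gadd45g thus stood highest at 1 h, above both 4 h libraries, and all 4 kainic acid libraries lay above control. Ratios to control were 22.0 (18.5 to 26.4) in the 1 h library, 12.6 (10.5 to 15.1) and 4.02 (3.32 to 4.89) in the 4 h replicates, and 2.03 (1.64 to 2.52) in the 8 h library. The quasi-likelihood log2 fold change was 4.44 (SE 0.84, adjusted p = 1) at 1 h, 3.03 (SE 0.75, adjusted p = 0.317) at 4 h and 1.01 (SE 0.77, adjusted p = 1.00) at 8 h. DESeq2 gave adjusted p = 0.196 at 1 h and 0.260 at 4 h. Over the alternatives the adjusted p for Gadd45g ran from 2.62e-44 to 1 in the 1 h comparison, with 4 of 10 under 0.05, and from 1.77e-25 to 0.419 in the 4 h comparison, with 3 of 10.

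Gadd45a (ENSMUSG00000036390.8, chr6:67035096-67037457) was counted 49 times in control, 75 at 1 h, 107 and 58 in the 4 h replicates, and 60 at 8 h, or 2.46, 4.27, 6.35, 3.07 and 3.42 CPM. All 4 kainic acid libraries lay above control, but the intervals of the ratio for 4 h replicate 2 (0.837 to 1.86) and 8 h (0.937 to 2.07) included 1. Of its exon bases, 19.1% overlap an annotated RNA of the opposite strand, E230016M11Rik. The library kit marked strand, but the strand setting of the counting is not given in the sources used here, so reads of the 2 genes may not be separated.

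**Figure D2:**
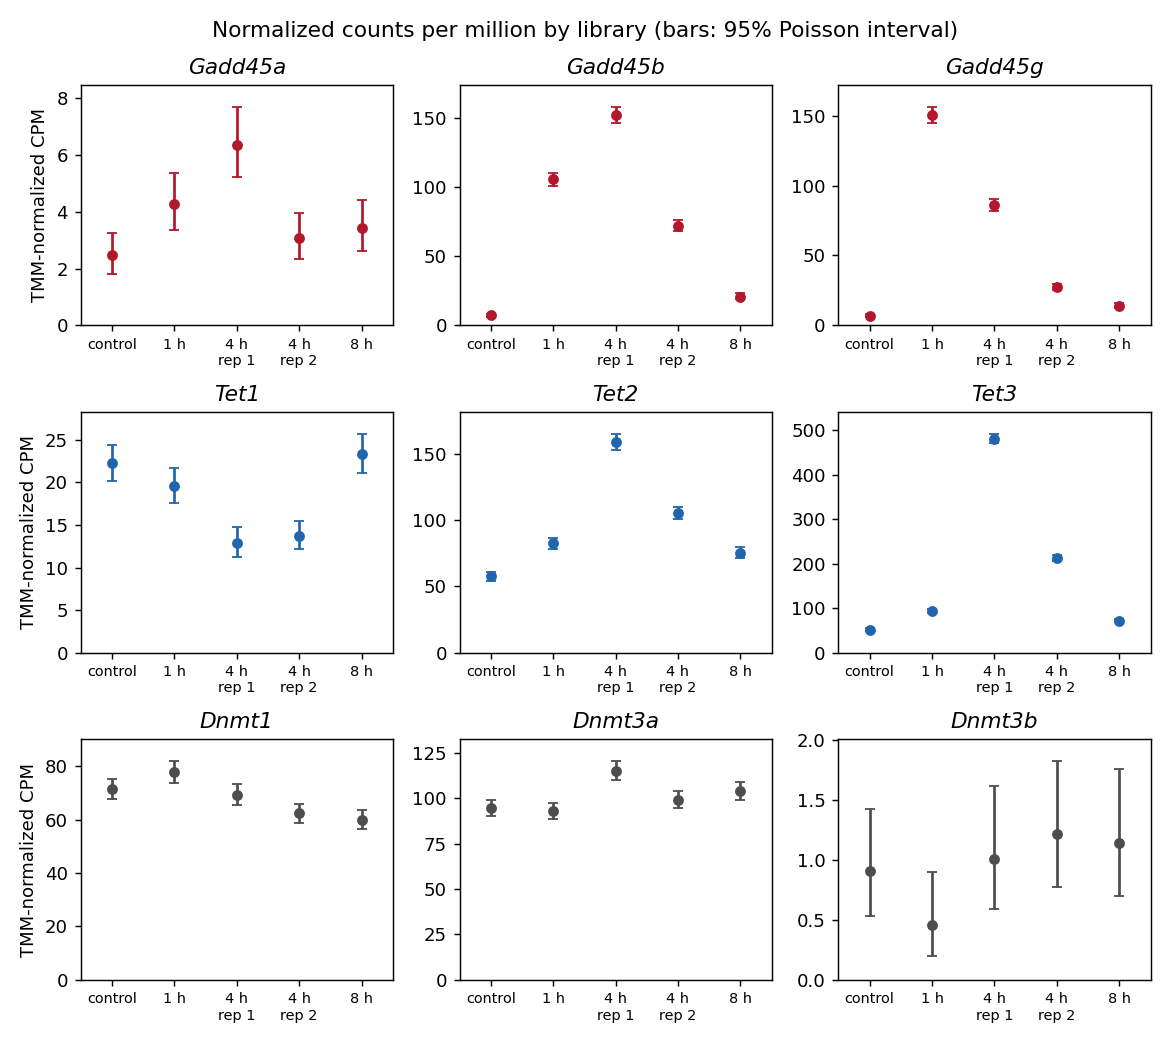
TMM-normalized CPM of each gene in each library, with 95% Poisson intervals that cover counting error only. Gadd45g was highest at 1 h (150.4 CPM), whereas Tet3 was highest at 4 h (481 and 213 CPM).

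Among the TET genes, Tet3 and Tet2 stood above control in all 4 kainic acid libraries and Tet1 below control in both 4 h libraries. Tet3 (ENSMUSG00000034832.15, chr6:83362373-83459084) was counted 1021 times in control, 1625 at 1 h, 8098 and 4037 in the 4 h replicates, and 1256 at 8 h. Its levels were 51.3 CPM in control (48.2 to 54.5), 92.5 (88.0 to 97.1) in the 1 h library, 481 (471 to 492) and 213 (207 to 220) in the 4 h replicates, and 71.6 (67.7 to 75.7) in the 8 h library. Both 4 h libraries lay above all other libraries. Ratios to control were 1.80 (1.67 to 1.95) in the 1 h library, 9.38 (8.78 to 10.02) and 4.16 (3.88 to 4.46) in the 4 h replicates, and 1.40 (1.28 to 1.52) in the 8 h library. The quasi-likelihood log2 fold change for the 4 h group was 2.76 (SE 0.53, adjusted p = 0.259), and DESeq2 gave adjusted p = 0.146. Over the alternatives the adjusted p for Tet3 at 4 h ran from 3.26e-31 to 0.330, with 3 of 10 under 0.05.

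Tet2 (ENSMUSG00000040943.12, chr3:133463679-133545139) was counted 1142 times in control, 1447 at 1 h, 2671 and 1984 in the 4 h replicates, and 1322 at 8 h, or 57.4, 82.3, 159, 105 and 75.4 CPM. Both 4 h libraries again lay above the others, with ratios to control of 2.76 (2.58 to 2.97) and 1.83 (1.70 to 1.97). The quasi-likelihood log2 fold change for the 4 h group was 1.20 (SE 0.29, adjusted p = 0.316), and DESeq2 gave adjusted p = 0.0366, with a range of 6.66e-06 to 1.00 over the alternatives.

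Tet1 (ENSMUSG00000047146.17, chr10:62804570-62908996) was counted 443 times in control, 344 at 1 h, 217 and 260 in the 4 h replicates, and 409 at 8 h. Its levels were 22.3 CPM in control (20.2 to 24.4), 19.6 (17.6 to 21.8) in the 1 h library, 12.9 (11.2 to 14.7) and 13.7 (12.1 to 15.5) in the 4 h replicates, and 23.3 (21.1 to 25.7) in the 8 h library. Both 4 h libraries were low and close to each other, and the 8 h library was within the counting interval of control. Ratios to control at 4 h were 0.579 (0.490 to 0.683) and 0.618 (0.528 to 0.722). The quasi-likelihood log2 fold change for the 4 h group was -0.74 (SE 0.23, adjusted p = 0.363), and DESeq2 gave adjusted p = 0.824.

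Dnmt1 and Dnmt3a stayed within 2-fold of control in every library, although some counting intervals excluded 1. Those of Dnmt1 ran from 0.807 to 0.943 in 4 h replicate 2 and from 0.774 to 0.909 at 8 h. That of Dnmt3a ran from 1.14 to 1.30 in 4 h replicate 1. Dnmt1 (ENSMUSG00000004099.16, chr9:20907209-20959888) was counted 1423, 1365, 1167, 1179 and 1051 times in control, 1 h, 4 h replicate 1, 4 h replicate 2 and 8 h, or 71.5, 77.7, 69.3, 62.4 and 60.0 CPM. Dnmt3a (ENSMUSG00000020661.15, chr12:3806007-3914443) was counted 1881, 1633, 1938, 1874 and 1821 times, or 94.5, 92.9, 115, 99.1 and 104 CPM. Across the 4 kainic acid libraries, ratios to control lay between 0.839 and 1.09 for Dnmt1 and between 0.983 and 1.22 for Dnmt3a. The quasi-likelihood log2 fold change for the 4 h group was -0.12 (SE 0.18, adjusted p = 0.818) for Dnmt1 and 0.18 (SE 0.18, adjusted p = 0.724) for Dnmt3a.

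Dnmt3b (ENSMUSG00000027478.15, chr2:153649450-153687730) was counted only 18, 8, 17, 23 and 20 times. Its ratio to control at 1 h was 0.503 with an interval of 0.189 to 1.22, so a difference was not detectable at this depth. The counts join the transcripts of each gene, so forms from different promoters, such as the long and short forms of Dnmt3a, were not separated.

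**Figure D3:**
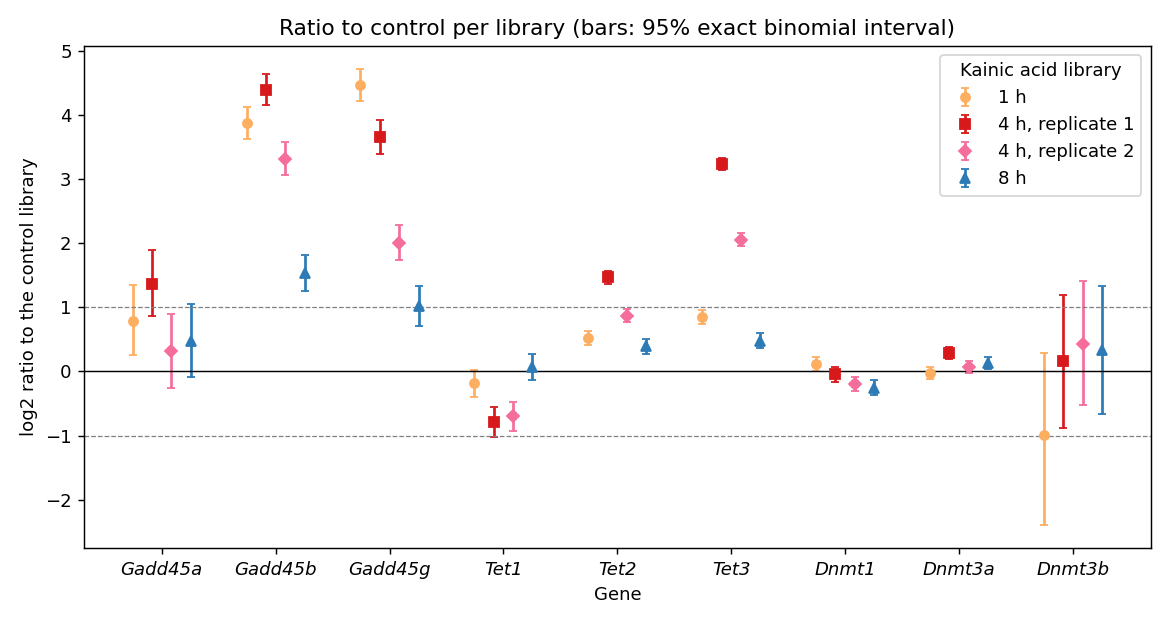
Log2 ratio of each gene to the control library in each kainic acid library, with 95% exact binomial intervals; dashed lines mark 2-fold. Gadd45b, Gadd45g and Tet3 lay above the upper line in both 4 h libraries, and Tet1 lay below 0 in both, with ratios of 0.579 and 0.618.

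Counted by a fold of at least 2 in every library of a time point, 2 of the 9 genes stood above control at 1 h (Gadd45b and Gadd45g), where 4.95% of all tested genes did. At 4 h these were 3 (Gadd45b, Gadd45g and Tet3) against 4.54% of all genes, and at 8 h 2 (Gadd45b and Gadd45g) against 6.46%. None of the 9 stood at least 2-fold below control with TMM scaling, where 3.39%, 1.48% and 3.18% of all genes did at 1 h, 4 h and 8 h. With library size alone or upper-quartile factors, Dnmt3b passed that limit at 1 h, on 8 counts against 18. With 4 h replicate 1 alone the 4 h count was 5, adding Gadd45a and Tet2, and 11.7% of all genes stood at least 2-fold above control and 6.53% below in that library. With replicate 2 alone it was 3, against 6.24% above and 3.5% below. The genes were chosen with earlier results known, and the 3 comparisons share 1 control library.

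By the quasi-likelihood test 0 of the 9 genes had an adjusted p under 0.05 at any time, and over all genes 0%, 0.00506% and 0% did at 1 h, 4 h and 8 h. The 1 gene called at 4 h is listed as ETV3L, with 1 count in control, 2 in the 1 h library, 963 and 982 in the 4 h replicates and 365 in the 8 h library. It was named after its values were seen. At an unadjusted p under 0.05 there were 2 of the 9 at 1 h, 5 at 4 h and 1 at 8 h, against 2.42%, 11.6% and 4.51% of all genes. DESeq2 called 1 of the 9 at 1 h (Gadd45b), 2 at 4 h (Gadd45b and Tet2) and 0 at 8 h, against 0.449%, 1.7% and 0.235% of genes with an adjusted p, and Dnmt3b had no DESeq2 adjusted p, so 8 of the 9 could be called. Limma-voom called 0 of the 9 and 0 of all 19768 genes. Since only the 4 h group had 2 libraries, the test assumed that single libraries vary as that pair does, with 1 residual degree of freedom.

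Between time points, the quasi-likelihood test called 0 of the 9 genes, with 0.00506% of all genes called for 4 h versus 1 h and 0% for 8 h versus 4 h. At an unadjusted p under 0.05 there were 1 and 5 of the 9, against 7.94% and 8.73% of all genes. DESeq2 called 0 and 1, against 0.823% and 0.92% of genes with an adjusted p. For 4 h versus 1 h, the log2 fold change was 1.91 (SE 0.50, adjusted p = 0.515) for Tet3, -1.41 (SE 0.60, adjusted p = 0.640) for Gadd45g and 0.09 (SE 0.43, adjusted p = 0.975) for Gadd45b. For 8 h versus 4 h it was -2.42 (SE 0.49, adjusted p = 0.463) for Gadd45b, which DESeq2 called with adjusted p = 1.52e-05, -2.27 (SE 0.52, adjusted p = 0.463) for Tet3 and -2.02 (SE 0.70, adjusted p = 0.544) for Gadd45g. These values depended on which 4 h library was used. Without replicate 1 and without replicate 2, the 4 h versus 1 h value was 1.21 and 2.38 for Tet3, -2.45 and -0.81 for Gadd45g, and -0.55 and 0.53 for Gadd45b. The 8 h versus 4 h value was -1.78 and -2.86 for Gadd45b, -1.57 and -2.74 for Tet3, and -0.98 and -2.62 for Gadd45g.

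The replicates at 4 h were furthest apart for the 3 GADD45 genes and Tet3. The ratio of replicate 1 to replicate 2 was 3.13 (2.83 to 3.47) for Gadd45g, 2.25 (2.17 to 2.34) for Tet3, 2.11 (1.97 to 2.25) for Gadd45b, 2.07 (1.49 to 2.90) for Gadd45a and 1.51 (1.43 to 1.60) for Tet2. For Tet1 it was 0.937 (0.779 to 1.13), for Dnmt1 1.11 and for Dnmt3a 1.16. Of all tested genes, 11.7% differed by at least 2-fold between these libraries.

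**Figure D4:**
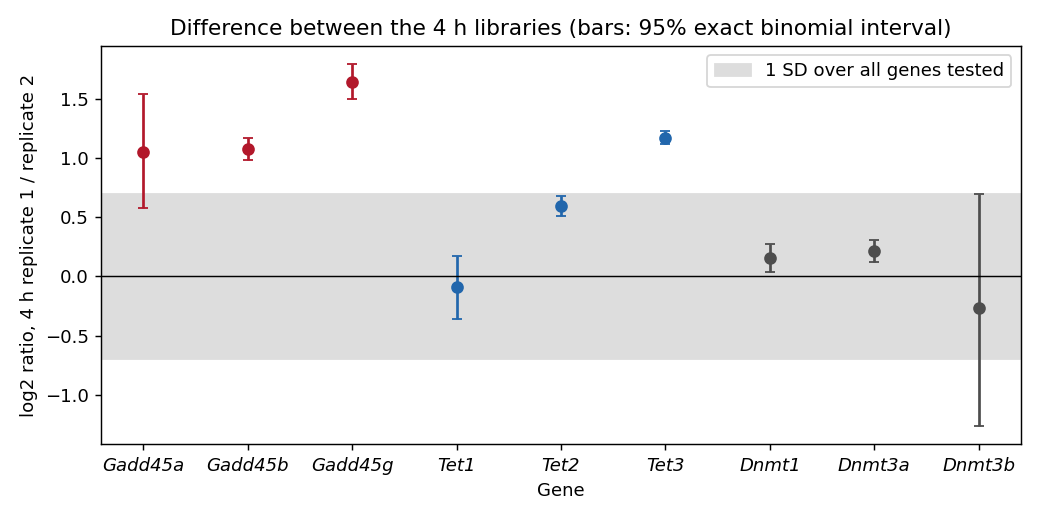
Log2 ratio of 4 h replicate 1 to replicate 2 for each gene, with 95% exact binomial intervals; the band is 1 SD of the same value over all 19768 tested genes (0.70). All 3 GADD45 genes and Tet3 lay above the band.

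Per kilobase of exon, the order of levels also differed between libraries. The length joins the exons of all annotated transcripts, at 7377 bases for Dnmt1, 1173 for Gadd45g and 16642 for Dnmt3a. Genes with many transcripts are thus set lower, and the order and shares depend on this choice. The intervals cover counting error only. In control Dnmt1 was highest (9.69 CPM per kb), followed by Gadd45g (5.83) and Dnmt3a (5.68), whose intervals overlapped. At 1 h Gadd45g (128 CPM per kb) and Gadd45b (66.4) led, and at 4 h Gadd45b led with 95.7 and 45.4 CPM per kb. At 8 h Gadd45b (13.1) and Gadd45g (11.8) had overlapping intervals. Dnmt3b was lowest in every library. Among the TET genes, the share of Tet3 per length was 38.8% in control, 47.4% at 1 h, 73.8% and 64.3% in the 4 h replicates, and 41.8% at 8 h.

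Other genes of these pathways were counted in lists. Of 46 listed genes, 42 were tested, and the quasi-likelihood test called 0 of them at each time. Over all genes, 4.95%, 4.54% and 6.46% stood at least 2-fold above control at 1 h, 4 h and 8 h and 3.39%, 1.48% and 3.18% below, so a count of 0 in a short list is near the background. In excision repair, 0 of 11 tested genes reached 2-fold at any time, and the median log2 fold change for the 4 h group was -0.13 against 0.01 over all genes. Tdg, the glycosylase for oxidized cytosine, was counted 365, 422, 456, 467 and 452 times, with ratios to control between 1.31 and 1.48. Mbd4, a glycosylase for mismatched thymine, was counted 244, 167, 128, 136 and 360 times, so that it lay below control at 1 h and in both 4 h libraries and above it at 8 h. Other genes of this list had ratios to control of 1.81 for Neil1 at 1 h and 1.92 for Parp1 in 4 h replicate 2. Apex1 stood at 0.566 and 0.778 of control in 4 h replicates 1 and 2, and Xrcc1 at 0.573 and 0.695. Neil2 stood at 0.569 in 4 h replicate 2, with an interval (0.313 to 1.01) that included 1. None of 9 tested readers and cofactors and none of 6 genes listed for 2-oxoglutarate supply and related functions, which were 5 isocitrate dehydrogenase genes and the O-GlcNAc transferase Ogt, reached 2-fold, with medians at 4 h of 0.15 and -0.24.

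Among 8 GADD45 partners, Cdkn1a and Cdk1 were at least 2-fold above control at every time, and the median at 4 h was 0.32. Cdkn1a, an inhibitor of cyclin-dependent kinases, was counted 54, 256, 874, 500 and 159 times, with ratios of 5.37 at 1 h, 19.1 and 9.75 in the 4 h replicates, and 3.34 at 8 h. Its quasi-likelihood log2 fold change for the 4 h group was 3.80 (SE 0.54, adjusted p = 0.242). Cdk1 had only 5, 9, 12, 12 and 10 counts, and the interval of each ratio included 1. Map3k4, the kinase that GADD45 proteins activate, was counted 1656, 1521, 1689, 1352 and 1310 times, with ratios between 0.859 and 1.21.

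Of 6 genes described in neurons as regulated through GADD45B or TET1, 5 were at least 2-fold above control at 1 h, 4 at 4 h and 1 at 8 h, against 4.95%, 4.54% and 6.46% of all genes. The count of 1 at 8 h is not far from that share. A gene raised by seizures through any route counts here, so these counts do not measure regulation through GADD45B or TET1. Tet1 itself stood at 0.879 of control at 1 h and at 0.579 and 0.618 in the 4 h replicates. Regulation of the listed genes was not tested. Bdnf, a neurotrophin, was counted 868, 3663, 12693, 5981 and 1695 times, and was the gene still at least 2-fold above control at 8 h. Npas4, an activity-dependent transcription factor, was counted 78, 12204, 2189, 93 and 90 times, so that 4 h replicate 1 was high and replicate 2 near control. Fos was counted 215, 17563, 8743, 1331 and 302 times, Arc 2936, 35538, 43661, 17548 and 2658 times, and Egr4 79, 1893, 534, 227 and 43 times. In these 5 genes replicate 1 stood above replicate 2. The same held for Gadd45a, Gadd45b, Gadd45g, Tet2, Tet3 and Cdkn1a, so it is not particular to this list. A link between these genes was not tested. The remaining gene, Fgf1, a growth factor, was counted 820, 700, 838, 853 and 589 times, with ratios to control of 0.967, 1.21, 1.09 and 0.816.

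The genes nearest to each GADD45 gene were sought among 12455 tested genes with at least 100 counts in some library, by the root mean square difference of the log2 ratio to control over the 4 kainic acid libraries. Nearest to Gadd45b were Ptgs2 (0.33), Pcdh8 (0.33), Csrnp1 (0.48), Pim1 (0.48) and Maff (0.61). Nearest to Gadd45g were Gem (0.26), Mir132 (0.27), Arl4d (0.45), Apold1 (0.45) and Ccn1 (0.54). Mir132 had 4 counts in control, Maff 13, Gem 26, Pim1 27 and Ccn1 36, so their ratios to control rest on few reads. Nearest to Gadd45a were Gm47591 (0.08), Gm43322 (0.11), Gm50403 (0.15), Gm48063 (0.15) and Gm37296 (0.16), all predicted genes. Gadd45a itself had 49 counts in control and Gm43322 had 54, so these distances also rest on few reads. The counting interval of the Gadd45a ratio at 1 h ran from 1.19 to 2.54.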

How the data were processed

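The authors aligned reads with STAR 2.5.1b to GRCm38.p4 and deposited raw counts per gene from HTSeq, per the labels; its version, strand setting and gene annotation are not given in the labels or methods read. Libraries were made with a stranded total RNA kit. Lines without a gene were left out: reads with no feature made up 24.7% to 33.1% of a library. Genes were filtered with filterByExpr, scaled by TMM and tested with edgeR 4.0.16 (R 4.3.3) over all 5 libraries in 4 groups, with a prior count of 2. Alternatives were DESeq2 1.42.0, limma 3.58.1 (voom), assumed coefficients of variation, other scalings, filters and prior counts, and leaving out each 4 h library. In simulated data the scripts recovered most changed genes with the right sign, but the quasi-likelihood test and voom made more false calls than their nominal rate. The simulated counts used the fitted spread, and in the real data the quasi-likelihood test called only 1 gene at 4 h. The simulated rate may therefore not carry over, and adjusted p-values here may be too small or too large. Counts under 3 were raised to 3 for the 2-fold rule. Exon lengths and positions came from GENCODE on GRCm38, which held 54487 of 55385 identifiers with the same version, including all 9. Of the reported lists, every gene at least 2-fold from control in both 4 h libraries or in the 1 h or 8 h library is named; the other list genes named are examples, chosen with their values known. The values of 1 of the lists are not reported here. The genes and lists were chosen with earlier results of these data known. Whether the 4 h replicates are separate animals is not stated, so p-values measure the spread between these libraries. SL327, an inhibitor named in the treatment text, is not assigned to these samples.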

Additional observations from a re-analysis of the deposited data

Results flagged for a closer look

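Some genes lay on opposite sides of control at different times in every library, although most times had 1 library. Many of these ratios had counting intervals that included 1: Tet1 at 1 h and 8 h, Dnmt1 in 4 h replicate 1, Dnmt3a at 1 h and in 4 h replicate 2, and Dnmt3b in all 4 kainic acid libraries. The difference in log2 ratio to control was 0.81 for Tet1 (8 h minus 4 h) and 0.25 (8 h minus 1 h). For Dnmt1 it was -0.24 (4 h minus 1 h) and -0.37 (8 h minus 1 h), for Dnmt3a 0.20 and 0.16, and for Dnmt3b 1.28 and 1.33, in the same order. The 8 h minus 1 h differences were not tested. By the quasi-likelihood test the adjusted p was 0.483 for Tet1 (8 h versus 4 h), and 0.761, 0.802 and 0.675 for Dnmt1, Dnmt3a and Dnmt3b (4 h versus 1 h). Dnmt3b rested on 8 counts at 1 h.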

How the results depend on the processing

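Calls depended on the model. In place of 0 of the 9 genes by the quasi-likelihood test, library size alone called 2 at 1 h, 3 at 4 h and 2 for 8 h versus 4 h, against 0.288%, 1.20% and 0.607% of all genes. DESeq2 called 1, 2 and 1 in these comparisons, against 0.449%, 1.7% and 0.92%. An assumed coefficient of variation of 0.2 called 2 at 1 h, 4 at 4 h, 2 for 4 h versus 1 h and 3 for 8 h versus 4 h, against 1.20%, 4.63%, 2.60% and 3.34%. One of 0.4 called 2 at 1 h and 1 at 4 h, against 0.202% and 0.410%. With no filter on low counts 3 were called at 1 h, 4 at 4 h, 2 at 8 h, 2 for 4 h versus 1 h and 4 for 8 h versus 4 h, against 0.871%, 3.97%, 0.852%, 2.21% and 2.92% of 32732 genes. The prior degrees of freedom were 4.42 in the reported fit, 11.2 with library size alone and infinite with no filter, so that there the spread of each gene itself was not used and its small p-values rest on the trend. Median-of-ratios and upper-quartile factors, limma-voom and a minimum of 10 counts called 0 of the 9 throughout, but also 0 or 1 of all genes in each comparison; the minimum of 10 counts removed Dnmt3b, so 8 of the 9 could be called there. Relative to the reported fit, library size alone shifted the median gene by -0.12 at 4 h and 0.14 for 8 h versus 4 h.

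Of 535 log2 fold changes under alternatives, 9 changed sign. For 4 h versus 1 h, leaving out either 4 h library gave -0.46 to 0.56 for Gadd45a and -0.55 to 0.53 for Gadd45b, the lower values without replicate 1. For 8 h versus 4 h it gave -0.87 to 0.15 for Gadd45a, -0.15 to 0.068 for Dnmt3a and -0.085 to 0.16 for Dnmt3b. Limma-voom gave -0.018 for Gadd45b, 4 h versus 1 h. For 8 h versus 4 h, library size alone gave 0.010 for Dnmt1 and 0.10 for Dnmt3a, and upper-quartile factors 0.013 for Dnmt3a. The cause was not tested. The count of genes at least 2-fold from control at 4 h was 3 to 5 when either 4 h library was left out. In replicate 2 alone (3 genes) 6.24% of all genes stood above and 3.5% below by that fold, and in replicate 1 alone (5 genes) 11.7% and 6.53%. No paired analysis was made, because the labels give no pairing between libraries and the replicate numbers carry none.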
